A study of Homo sapiens with 10 samples.

Results

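The ATP-binding cassette (ABC) exporters are membrane pumps that use ATP to move drugs, metabolites and lipids out of the cell or into organelles. The genes examined here are the 10 drug and conjugate efflux transporters ABCB1, ABCB6, ABCC1, ABCC2, ABCC3, ABCC4, ABCC5, ABCC6, ABCG1 and ABCG2 of the ABCB, ABCC and ABCG subfamilies, chosen by gene symbol. All 10 were found among the 33551 rows of the count table, and all 10 had enough counts to enter the statistical test. RNA was sequenced from 5 lines of A549, an established human lung adenocarcinoma cell line with alveolar epithelial features. One was labelled wild type (WT), another ABCA3 knockout (KO), and the other 3 bore the names of the ABCA3 variants L101P, E292V and E690K. ABCA3 is itself an ABC transporter, which loads phospholipid into the surfactant-storing lamellar bodies of alveolar type 2 cells, and the series title groups the variants as type 1 and type 2. Every line was sequenced untreated and after an overnight exposure to LV-ABCA3:GFP, a VSVG-coated lentiviral vector that encodes an ABCA3:GFP fusion, used at a multiplicity of infection (MOI) of 20. The design thus has 10 libraries, with no repeat of any line in the same condition. Each genotype was 1 line, all lines shared the A549 background, and the labels do not say whether a line was a single clone.

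Drug exporters fall into a few working groups. ABCB1 (P-glycoprotein) and ABCG2 (breast cancer resistance protein) pump a broad range of uncharged and amphipathic drugs. The ABCC proteins, the multidrug resistance-associated proteins, export organic anions, among them the glutathione, glucuronide and sulfate conjugates that phase II enzymes make. ABCC2 and ABCG2 sit mostly in the apical membrane of epithelia and ABCC1 and ABCC3 mostly in the basolateral membrane, so that their balance sets the side to which a conjugate leaves. ABCC4 and ABCC5 carry cyclic nucleotides and nucleotide analogues. ABCB6 is a porphyrin-linked transporter, ABCC6 controls the release of ATP that yields the mineralisation inhibitor pyrophosphate, and ABCG1 moves cholesterol to lipoprotein acceptors and is induced by the oxysterol receptors LXR.

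Library totals ran from 59430095 to 96811421 counts. The targeted gene went against the labels in the KO pair: ABCA3 stood at 600.5 CPM (the usual scaling of a count by its library total) in the untreated library labelled KO and at 25.8 CPM in the transduced library labelled KO, and EGFP at 37.9 and 0.0492 CPM. What that pair says about the direction of a vector effect therefore rests on the labels alone. EGFP reads were present in all 5 untreated libraries, at 1.01 to 70.9 CPM. In L101P too ABCA3 was lower in the transduced library (895.8 against 1155.7 CPM), while EGFP was higher (35.9 against 1.01 CPM). Untreated and transduced ABCA3 levels were 991.6 and 1034.6 CPM in E292V, 889.7 and 967.7 in E690K and 361.9 and 610.5 in WT. EGFP was at 16.3 and 18.0 CPM in E690K and rose in E292V and WT. The fitted log2 vector effect on ABCA3 was -0.49 (SE 0.545, edgeR adjusted p = 0.935), so no common rise in ABCA3 was shown. That fit includes the KO pair, whose change was the largest and whose labels are in doubt. ABCA3 was higher in the transduced library of WT, E292V and E690K and lower in that of L101P. The 6 epithelial markers EPCAM, CDH1, KRT8, KRT18, KRT19 and CLDN4 were present in every library. Their summed levels were 5440 to 11500 CPM, mostly KRT8 (3721 to 7719 CPM) and KRT18 (1608 to 3239 CPM). The alveolar type 2 markers other than ABCA3 summed to only 1.40 to 2.27 CPM, so these libraries lacked most of the defining genes of that cell type. Alveolar type 1 markers summed to 290.0 to 646 CPM, nearly all of it CAV1 (287.4 to 643.8 CPM), with AGER at 1.62 to 2.91 CPM and AQP5 and HOPX at or near 0. Leukocyte markers summed to 25.1 to 50.4 CPM, mostly CD68 (20.7 to 42.9 CPM), endothelial markers to 0.0985 to 1.08 CPM and fibroblast markers to 14.2 to 119 CPM, with CD3E and PDPN at 0 counts in all 10 libraries. In bulk RNA, fewer cells that express a gene and less RNA per cell cannot be told apart.

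The exporters spanned a wide range of abundance, and ABCC2 and ABCC3 dominated it. To compare genes, CPM was divided by the length of the union of each gene's annotated exons (GENCODE release 29). ABCC2 was the most abundant per kilobase at 81.5 ± 5.12 CPM per kilobase (SD, n = 10 libraries), followed by ABCC3 at 54.3 ± 12.5, ABCC1 at 24.3 ± 1.51, ABCC4 at 17.5 ± 0.941 and ABCG2 at 12.5 ± 2.62 on the same scale. ABCC5 followed at 2.27 ± 0.322 CPM per kilobase. ABCB6, ABCG1 and ABCC6 were scarce, at 0.631 ± 0.127, 0.488 ± 0.246 and 0.420 ± 0.0986 CPM per kilobase, and ABCB1 averaged 0.0219. The order was the same in all 10 libraries from ABCC3 down to ABCB6 and at the step to ABCB1. It was less firm at 3 steps: ABCC2 exceeded ABCC3 in 9 of 10 libraries, ABCB6 exceeded ABCG1 in 8 and ABCG1 exceeded ABCC6 in 6, so ABCG1 and ABCC6 could not be ranked. These SDs run over libraries of different lines and are not replicate error. Dividing by the longest annotated transcript instead kept the order, with ABCC2 at 110.0 and ABCC3 at 91.3 CPM per kilobase.

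**Figure D1:**
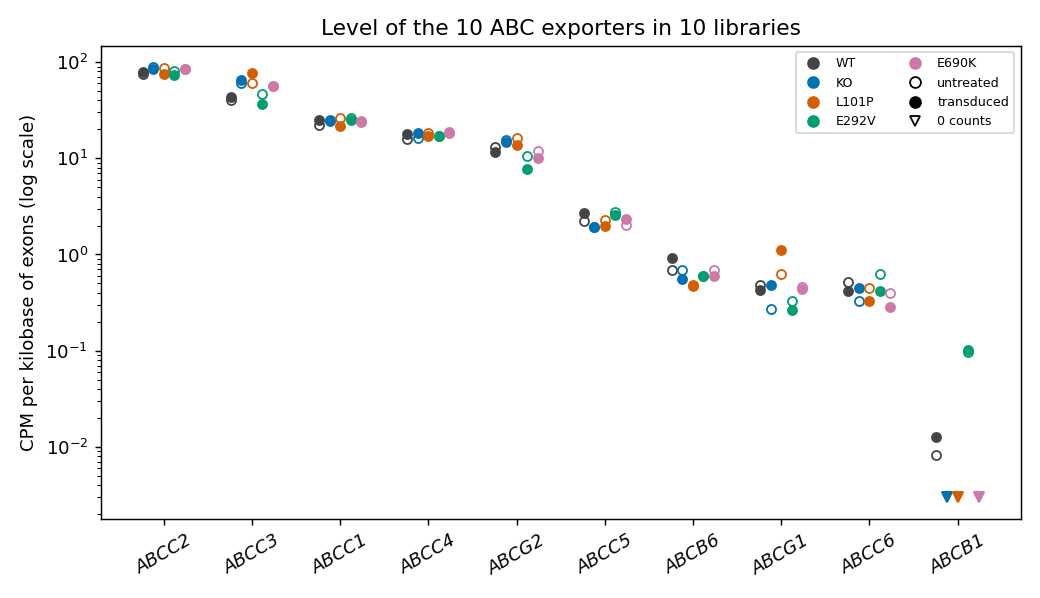
Level of each exporter in each of the 10 libraries, as CPM per kilobase of annotated exons on a log axis, with colours for the lines, open circles for untreated and filled circles for transduced libraries. ABCC2 and ABCC3 lie at the top, ABCB6, ABCG1 and ABCC6 near 1 or below, and ABCB1 has 0 counts in 6 libraries, drawn as triangles at the foot of the plot.

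In total the 10 exporters took 1344 to 1747 CPM of a library. ABCC2 and ABCC3 together made up 69.3% to 76.3% of that sum. The ratio of the basolateral ABCC3 to the apical ABCC2 is given by library and was not tested among lines. Per kilobase, ABCC3 was at 0.528 (untreated) and 0.550 (transduced) of ABCC2 in WT and at 0.572 and 0.498 in E292V. It was at 0.669 and 0.668 in E690K, 0.681 and 0.763 in the line labelled KO, and 0.708 and 1.02 in L101P. The ratios of WT and E292V overlapped, as did those of the line labelled KO and L101P. Levels of RNA do not show the side to which a conjugate leaves. The transduced L101P library was the single library in which ABCC3 exceeded ABCC2 per kilobase.

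Variation over the libraries differed among the exporters and followed their abundance only in part. It was largest in the scarce members, but ABCC3 and ABCG2 varied more than the scarcer ABCC5. Over 12965 genes averaging 1 CPM or more, the coefficient of variation over the 10 libraries had a median of 10.3% and quartiles of 7.04% and 17.3%. ABCC4, ABCC1 and ABCC2 varied little, at 5.37%, 6.20% and 6.28%, the 10.9th, 17.5th and 18.3rd percentiles of those genes. ABCC5 stood at 14.2%, ABCB6 at 20.0%, ABCG2 at 20.9%, ABCC3, the second most abundant, at 23.1% (the 84.6th percentile) and ABCC6 at 23.5% (the 85.0th percentile). ABCG1 varied the most of the members above 1 CPM, at 50.3%, the 97.8th percentile. For the members near 3 CPM, which are ABCB6, ABCC6 and ABCG1, counting error adds more to this figure than for the abundant ones.

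Promoter sequence was taken from RefSeq (GRCh38.p14) for the 7 of 10 members that matched its table of windows from 250 bases before to 50 bases after a transcript start, 13 windows in all. ABCC1, ABCC3 and ABCG1 had no entry. The promoters of 3 members are shown, with the 250 bases before the start, 5′ to 3′ on the strand of the gene: ABCC2 as the most abundant exporter, ABCB1 as the one detected in few lines, and ABCG2 as a broad drug pump that differed among lines. For ABCB1 this is 1 of 2 windows and for ABCG2 1 of 5. Capitals mark matches on either strand to any of 5 motifs: TGACNNNGC (the antioxidant response core, bound by NRF2), GCGTG (the xenobiotic response core, bound by AHR and ARNT), GGGCGG (the GC box, bound by SP1), CCAAT and TATAAA.
ABCC2, chr10:99782390-99782639, plus strand: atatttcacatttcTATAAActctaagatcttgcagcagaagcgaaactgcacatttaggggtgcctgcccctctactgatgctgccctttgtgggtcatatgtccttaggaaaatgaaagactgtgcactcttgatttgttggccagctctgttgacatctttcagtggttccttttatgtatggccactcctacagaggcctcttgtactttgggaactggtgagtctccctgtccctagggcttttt
ABCB1, chr7:87600885-87601134, minus strand: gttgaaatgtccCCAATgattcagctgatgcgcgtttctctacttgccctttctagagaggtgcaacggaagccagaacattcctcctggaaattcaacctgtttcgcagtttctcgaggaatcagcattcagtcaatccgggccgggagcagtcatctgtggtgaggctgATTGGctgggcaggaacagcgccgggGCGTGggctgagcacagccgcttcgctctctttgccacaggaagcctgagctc
ABCG2, chr4:88158910-88159159, minus strand: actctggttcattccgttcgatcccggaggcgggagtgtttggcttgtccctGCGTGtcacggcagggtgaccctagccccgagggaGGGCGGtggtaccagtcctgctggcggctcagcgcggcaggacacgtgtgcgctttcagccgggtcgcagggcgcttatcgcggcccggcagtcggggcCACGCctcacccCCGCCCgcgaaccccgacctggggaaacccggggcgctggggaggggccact

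The ABCC2 window was poor in CpG. Over the full 300 bases it held 45.0% G and C against a median of 58.7% over 35116 windows of that length, and its ratio of observed to expected CpG was 0.066, the 5.63rd percentile, where the median was 0.579. It held 1 TATAAA, a motif found in 11.5% of all windows. The ABCB1 window had a G and C content of 55.3%, a CpG ratio of 0.698, 2 CCAAT matches (34.6% of windows hold that motif) and 1 GCGTG (36.5% of windows). A second ABCB1 window, at the far upstream start near position 87713296, held 37.7% G and C and none of the 5 motifs. GENCODE has 4 ABCB1 transcript starts within 50 bases of the start of that second window and 0 for the window shown. The ABCG2 window shown was CpG-rich, with 70.0% G and C, a CpG ratio of 0.901, 2 GCGTG and 2 GGGCGG matches (45.0% of windows). The other ABCG2 windows differed, with 40.3% to 72.3% G and C and CpG ratios of 0.247 to 0.902. The window with 48.3% G and C held 1 antioxidant response core, and that with 40.3% held none of the 5 motifs. ABCC4 had the highest G and C content of the members, 79.7%, with 3 GCGTG and 1 TGACNNNGC (13.3% of windows). ABCB6 held 1 antioxidant response core, 2 GC boxes and 1 CCAAT box. ABCC5 held 1 xenobiotic response core, 1 GC box and 1 TATA box. The 2 windows of ABCC6 held none of the 5 motifs. No base lay in more than 1 match. A match describes these letters and does not show a bound site.

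The lines differed in ABCG2, ABCC3 and ABCG1, and ABCB1 was detected in only 2 of them. In a test for any difference among the 5 lines, averaged over vector, 2337 of 17978 genes (13.0%) passed an adjusted p of 0.05. The 4 of 10 members that passed were ABCG2 (adjusted p = 7e-04), ABCC3 (0.00193), ABCB1 (0.0118) and ABCG1 (0.021). ABCB1 passed the filter on low counts only through the E292V libraries, so its test had to show a difference and is given as a description. The ABCG1 call was lost without the transduced L101P library (adjusted p = 0.0838), the L101P pair (0.252) or the E292V pair (0.0645), and that of ABCB1 without either E292V library (0.131 and 0.185). The other 6 did not pass, with adjusted p of 0.123 for ABCC5, 0.182 for ABCC2, 0.246 for ABCB6, 0.457 for ABCC4, 0.546 for ABCC6 and 0.847 for ABCC1. ABCC5 passed with no filter on low counts (0.0323), and without either or both L101P libraries ABCC5 (0.0128 to 0.0299) and ABCC2 (0.033 to 0.0478) did. These tests, by edgeR's quasi-likelihood method with Benjamini-Hochberg adjustment, take their error from the departure of the 10 libraries from additive line and vector effects. A call therefore describes these lines, and a genotype cannot be told apart from the line that carries it.

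**Figure D2:**
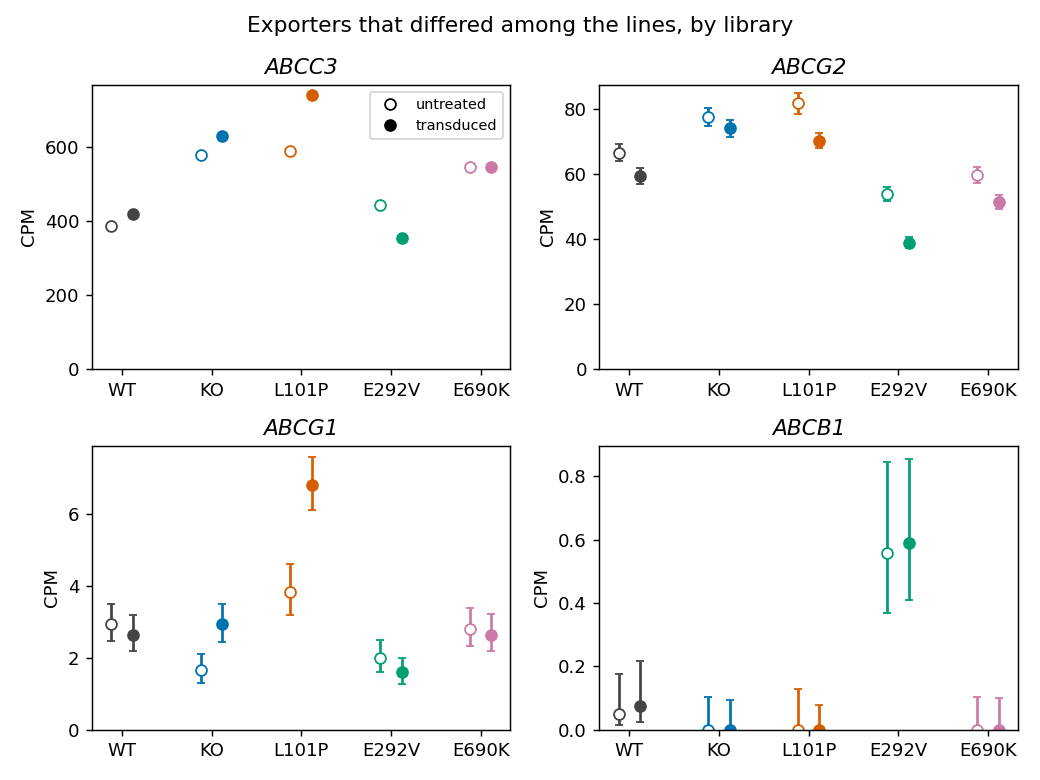
CPM of ABCC3, ABCG2, ABCG1 and ABCB1 in each library, by line, with open circles for untreated and filled circles for transduced libraries and bars for 95% Wilson intervals on read pairs, which cover counting error only and are smaller than the points for ABCC3. ABCC3 and ABCG2 lie highest in L101P and the line labelled KO, ABCG1 is highest in the transduced L101P library, and ABCB1 is above 0.5 CPM only in the E292V pair.

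ABCC3 (MRP3; chromosome 17, 50634777 to 50692252, plus strand of GRCh38 as annotated by GENCODE) exports glucuronide conjugates and bile acids across the basolateral membrane. It was at 385.3 CPM in the untreated and 418.2 CPM in the transduced WT library. In E292V it was at 443.3 and 353.2 CPM, which spans the WT values. It was higher in the other 3 lines: 544.3 and 545.8 CPM in E690K, 576.8 and 628.9 CPM in the line labelled KO, and 586.8 and 738.7 CPM in L101P. All 6 libraries of these 3 lines lay above all 4 libraries of WT and E292V, while the ranges of L101P and the line labelled KO overlapped.

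Against WT, ABCC3 was 1.70-fold higher in L101P (log2 fold change 0.76, SE 0.121, adjusted p = 0.00591), 1.53-fold higher in the line labelled KO (0.61, SE 0.121, adjusted p = 0.026) and 1.41-fold higher in E690K (0.49, SE 0.120, adjusted p = 0.0343). In E292V the log2 difference from WT was -0.02 with an SE of 0.12 (adjusted p = 0.983). The L101P call was kept in all 20 alternative settings. The call in the line labelled KO was lost in 8 of 20, with its library labels exchanged (log2 fold change 0.61, adjusted p = 0.0561) and without any single library of WT, KO or E690K or the E690K pair (adjusted p 0.0512 to 0.31). That in E690K was lost in 6 of 20, with the KO labels exchanged (0.49, adjusted p = 0.0664), without the KO pair (0.50, adjusted p = 0.0644) and without any single library of WT or E690K (adjusted p 0.0729 to 0.265). The summed level of the 6 epithelial markers, most of it KRT8 and KRT18, moved in a like order. It was 5440 and 6050 CPM in E292V, 6360 and 6960 in WT and 7560 and 7900 in E690K. In the line labelled KO it was 7480 and 8600 CPM and in L101P 7750 and 11500. Not all 6 markers followed that order. EPCAM was higher in E292V (13.3 and 15.8 CPM) than in WT (7.73 and 10.8 CPM), and CDH1 was lowest in E690K (21.2 and 24.7 CPM). The part of these markers in the ABCC3 difference was not tested.

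ABCG2 (chromosome 4, 88090264 to 88231322, minus strand), the pump that marks side-population cells and exports sulfate conjugates, urate and many cytotoxic drugs, had another order. WT held 66.5 CPM untreated and 59.3 CPM transduced. L101P held 81.6 and 70.1 CPM and the line labelled KO 77.5 and 73.9 CPM, and these 4 libraries were the highest of the 10. E690K held 59.5 and 51.3 CPM, overlapping WT. E292V had the lowest mean of the lines, at 53.7 and 38.8 CPM, and its pair overlapped that of E690K.

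E292V was the line that passed for ABCG2 against WT, at 0.727 of the WT level (log2 fold change -0.46, SE 0.093, adjusted p = 0.0374). The log2 difference from WT was 0.31 in L101P (SE 0.093, adjusted p = 0.0916), 0.30 in the line labelled KO (SE 0.093, adjusted p = 0.142) and -0.14 in E690K (SE 0.093, adjusted p = 0.486), none of which passed. The L101P difference passed with DESeq2 (adjusted p = 0.0331) and with no filter on low counts (0.0328), and that of the line labelled KO in 5 settings: no filter (0.0498), its 4 libraries with WT alone (0.00617), and without either or both L101P libraries (0.0348 to 0.0447). The E292V call was lost in 8 of 20 settings and leaned on the transduced E292V library, without which the log2 fold change was -0.32 (adjusted p = 0.593). It was also lost with the KO labels exchanged (-0.46, adjusted p = 0.0909), without the KO pair (-0.46, adjusted p = 0.0696), without either WT library (adjusted p = 0.212 and 0.164) and without either or both E690K libraries (adjusted p 0.0845 to 0.115).

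ABCG1 (chromosome 21, 42199689 to 42297244, plus strand), the LXR-induced cholesterol exporter, was scarce. It was at 2.94 and 2.63 CPM in WT, 2.80 and 2.65 CPM in E690K, 1.65 and 2.93 CPM in the line labelled KO and 2.00 and 1.60 CPM in E292V. L101P was highest in both libraries, at 3.84 CPM untreated (95% Wilson interval on read pairs 3.19 to 4.61) and 6.82 CPM transduced (6.12 to 7.59). The neighbours WT, E690K, KO and E292V overlapped in that order. Against WT the log2 difference of L101P was 0.94 with an SE of 0.301 and did not pass (adjusted p = 0.109), though it passed with DESeq2 (0.96, adjusted p = 0.0459), with no filter on low counts (0.94, adjusted p = 0.0114) and without the untreated L101P library (1.31, adjusted p = 0.00446).

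ABCB1 (chromosome 7, 87503633 to 87713323, minus strand), the classical multidrug pump, was near the limit of detection. The E292V line had 44 counts untreated and 56 transduced, which is 0.558 and 0.590 CPM. WT had 4 and 6 counts, 0.0479 and 0.0738 CPM. The line labelled KO, L101P and E690K had 0 counts in all 6 libraries, where the upper ends of the 95% Wilson intervals were 0.0794 to 0.129 CPM. Of the values from 1 to 10 in the table, 81.4% were even, the form of a table that adds both mates of a read pair, so the count was divided by 2: E292V then rested on 50 read pairs and WT on 5. The E292V level was 9.49-fold that of WT (95% exact interval on the read pairs, 3.81 to 30.5, for counting error only). For a count of 0, 3 read pairs over a line's 2 libraries were taken as the limit. The E292V level was 15.0-fold that limit for the line labelled KO and for L101P and 14.8-fold for E690K. These ratios leave out the counting error of the 50 E292V read pairs, so they are not lower bounds. The edgeR adjusted p of E292V against WT was 0.371 and did not pass. In the 4 libraries of these lines alone it was 0.0459. There too ABCB1 passed the filter on low counts only through its E292V counts, so that value is no support for a difference. The E292V libraries also had the highest summed fibroblast markers, 75.3 and 119 CPM against 14.2 to 45.9 CPM in the other 8 libraries. Nearly all of that sum was COL1A1, while DCN had at most 18 counts and COL1A2 at most 22 in any library. The part of those cells or genes in the ABCB1 level was not tested.

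ABCC1 (MRP1; chromosome 16, 15949577 to 16143074, plus strand), the exporter of glutathione conjugates and leukotriene C4, did not pass among lines. Its CPM were 166.3 and 187.6 in WT, 187.6 and 184.4 in the line labelled KO, 198.1 and 162.8 in L101P, 196.7 and 187.9 in E292V and 182.4 and 185.4 in E690K. The log2 differences from WT were 0.06 to 0.11 with an SE of 0.090. ABCC4 (MRP4; chromosome 13, 95019829 to 95301475, minus strand), an exporter of cyclic nucleotides and prostaglandins, was at 138.4 and 156.2 CPM in WT, and its lowest and highest values over the 10 libraries were 138.4 and 161.6 CPM with a median of 152.3. Its largest log2 difference from WT was 0.17 in E690K (SE 0.080, adjusted p = 0.262).

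ABCC2 (MRP2; chromosome 10, 99782640 to 99852594, plus strand), the apical exporter of bilirubin glucuronides and drug conjugates, ranged from 578.3 to 690.003 CPM with a median of 647.6. It was at 594.8 and 619.3 CPM in WT, 631.5 and 578.3 in E292V, 675.1 and 593.3 in L101P, 663.6 and 666.3 in E690K and 690.003 and 671.5 in the line labelled KO. The log2 differences from WT were 0.19 in the line labelled KO (SE 0.075, adjusted p = 0.255) and 0.18 in E690K (SE 0.075, adjusted p = 0.202), and neither passed. Neighbouring lines overlapped at each step of the order apart from the line labelled KO, whose pair lay above that of E690K.

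ABCC5 (MRP5; chromosome 3, 183919934 to 184018015, minus strand), which exports cyclic GMP and nucleotide analogues, was at 25.5 and 31.1 CPM in WT, 31.6 and 29.2 in E292V, 22.9 and 26.5 in E690K, 25.9 and 22.7 in L101P and 22.1 and 21.8 in the line labelled KO. The line labelled KO was lowest in both libraries, with a log2 difference from WT of -0.34 (SE 0.118, adjusted p = 0.201) that did not pass, save in the 4 libraries of that line and WT alone (adjusted p = 0.016). ABCC6 (chromosome 16, 16148928 to 16223522, minus strand), the gene of pseudoxanthoma elasticum, lies beside ABCC1 and had 2.15 to 4.69 CPM with a median of 3.12. Its line ranges overlapped at every step of the order, and its level is uncertain because near-identical pseudogene copies can share its reads.

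ABCB6 (chromosome 2, 219209766 to 219219017, minus strand) was lowest in L101P, at 2.54 and 2.47 CPM against 3.64 and 4.76 CPM in WT, with no overlap between L101P and any other line. The log2 difference from WT was -0.71 (SE 0.218, adjusted p = 0.0981) and did not pass. The line labelled KO had 3.64 and 2.94 CPM, E292V 3.13 and 3.13 CPM and E690K 3.62 and 3.16 CPM. The annotation has a same-strand read-through gene, AC068946.2, that covers 54.7% of the exon bases of ABCB6 and had 15 to 43 counts of its own, so the split of reads between these genes is uncertain.

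**Figure D3:**
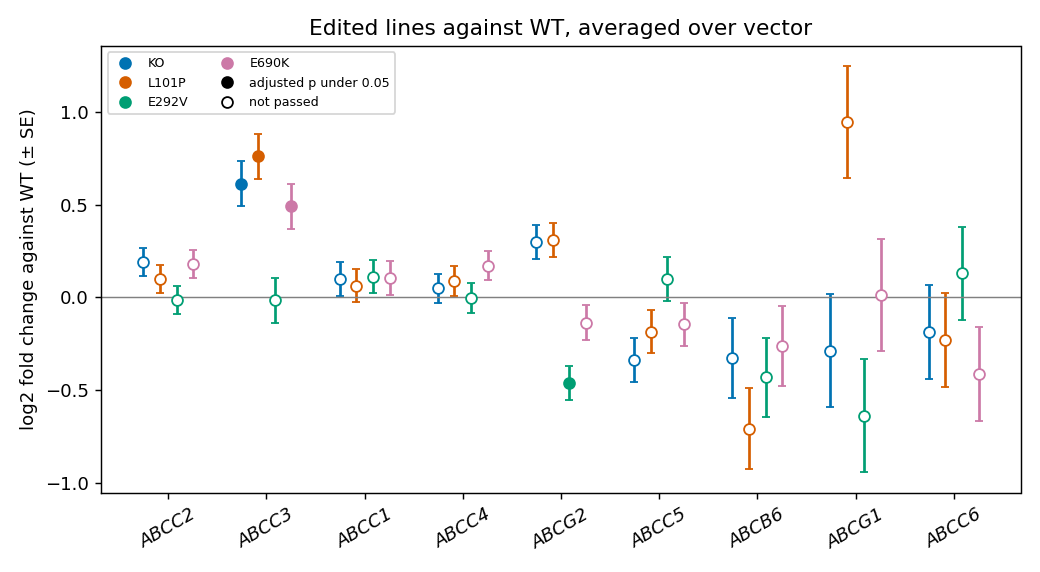
Fitted log2 fold change of each edited line against WT, averaged over vector, for 9 exporters (ABCB1, at 0 counts in 3 lines, is left out), with bars of 1 SE and filled points for an adjusted p under 0.05. ABCC3 stands at 0.49 to 0.76 in KO, E690K and L101P and at -0.02 in E292V, and ABCG2 at -0.46 in E292V is the only other filled point.

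In each comparison of a line with WT, 1 of the 10 members passed. Of all tested genes, 1.80% passed for the line labelled KO (323 genes), 3.94% for L101P (709 genes), 1.05% for E292V (189 genes) and 5.38% for E690K (967 genes). A single member of 10 is too few to set against those shares. The 4 comparisons share the WT libraries, so an error in those would enter all of them.

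The series contrasts a type 1 with type 2 variants. L101P was therefore also set against the mean of E292V and E690K, where 1041 genes (5.79%) passed and 3 of the 10 members did. The labels do not assign the variants to a type, and this grouping follows general knowledge of the ABCA3 variants. L101P was higher in ABCG2 (1.52-fold, log2 fold change 0.61, SE 0.079, adjusted p = 0.00155), in ABCC3 (1.44-fold, 0.52, SE 0.102, adjusted p = 0.0116) and in ABCG1 (2.39-fold, 1.26, SE 0.253, adjusted p = 0.0134). Both L101P libraries lay above all 4 libraries of E292V and E690K for each of these genes. The mean joins lines that differed from each other. Against WT the log2 differences in E292V and E690K were -0.02 and 0.49 for ABCC3, -0.46 and -0.14 for ABCG2 and -0.64 and 0.01 for ABCG1. For ABCC3 and ABCG2 the line labelled KO overlapped L101P, so the higher level was not particular to L101P. Cell type markers also passed in the same comparison. Of the 6 epithelial markers 4 were higher, KRT8 (0.54), KRT18 (0.51), KRT19 (1.21) and CLDN4 (1.08), while EPCAM (-0.27) and CDH1 (0.08) did not pass. CD14 of the leukocyte list was higher (1.40, at 1.13 to 5.31 CPM over the libraries), while CD68 (0.43) and ITGAM (-0.34) did not pass. COL1A1 (-1.40) and CAV1 (-0.53) were lower. The other tested markers of their lists did not pass: the scarce COL3A1 (-2.69) and PDGFRA (0.45), and AGER (-0.23). The part of these markers in the exporter differences was not tested. Without the transduced L101P library the ABCG1 difference was 0.82 (adjusted p = 0.197) and the ABCC3 difference 0.32 (adjusted p = 0.0884), and without the transduced E690K library they were 1.15 (adjusted p = 0.0815) and 0.51 (adjusted p = 0.0663). The ABCG2 call was kept in all 18 settings.

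No exporter passed for the vector. The fit gave 0 of 17978 genes (0%) at the adjusted threshold, with a smallest adjusted p of 0.109, and 1236 genes at an unadjusted threshold of 0.05; DESeq2 called 118 genes and 0 members. The member nearest to a call was ABCG2, which was lower in the transduced than in the untreated library of 5 of 5 lines, by a log2 value of -0.07 in the line labelled KO, -0.165 in WT, -0.21 in E690K, -0.22 in L101P and -0.47 in E292V. The fitted value was -0.20 with an SE of 0.059 (adjusted p = 0.414), -0.18 with the KO labels exchanged and -0.24 without the KO pair. ABCC6 was lower in 4 of 5 lines and higher in the line labelled KO (fitted -0.26, SE 0.162, adjusted p = 0.83), and its fitted value was -0.45 with the KO labels exchanged and -0.44 without the KO pair. ABCG1 was at -0.32 to -0.08 in E292V, WT and E690K and at 0.83 in the line labelled KO and in L101P, and ABCC3 ranged from -0.33 in E292V to 0.33 in L101P. The fitted value of ABCG1 was 0.24 (SE 0.194, adjusted p = 0.894), 0.10 without the KO pair and -0.08 with the KO labels exchanged, so its direction rests on that pair's labels. The fitted values of ABCB6, ABCC1, ABCC2, ABCC3, ABCC4 and ABCC5 lay between -0.04 and 0.07. A term for a different vector effect in WT than in the other 4 lines was passed by 0 genes (0%; 597 at an unadjusted threshold of 0.05, 0 with DESeq2) and by 0 members.

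**Figure D4:**
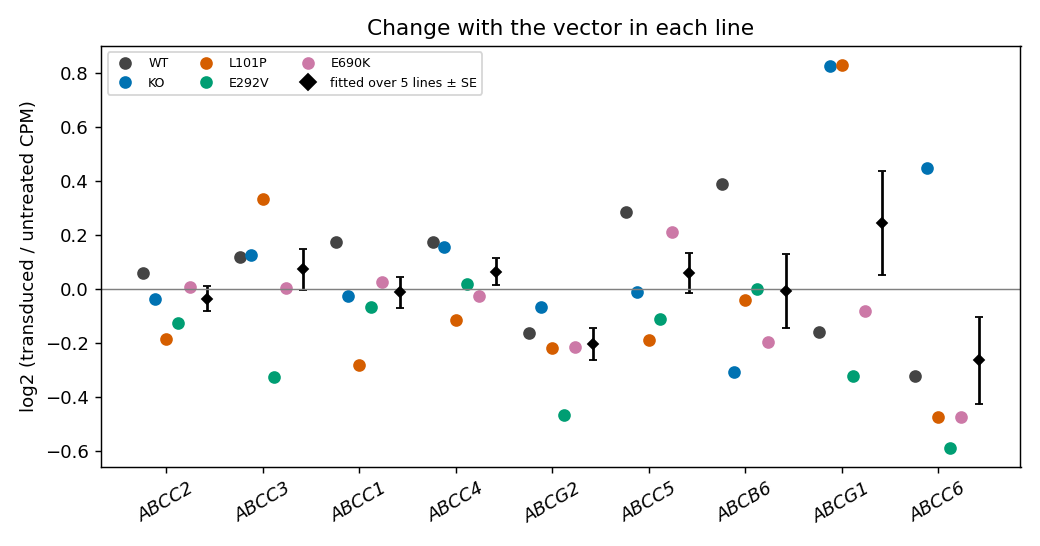
Log2 ratio of transduced to untreated CPM in each line (circles) and the value fitted over the 5 lines with its SE (diamonds and bars) for 9 exporters. ABCG2 lies below 0 in all 5 lines, and ABCC6 and ABCG1 show the widest spread among lines.

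The genes whose pattern over the 10 libraries was most like that of a member were listed for the 3 members with the smallest p among lines, by Pearson correlation of log2 CPM over about 11968 genes. These are descriptions over libraries that share lines. For ABCG2 they were CPLX2, a synaptic vesicle fusion regulator (r = 0.973), the Wnt receptor FZD5 (r = 0.973) and the protocadherin PCDHAC2 (r = 0.9715). CPLX2 had 2086 CPM in untreated L101P and 873.3 CPM in transduced E292V, the same extremes as ABCG2. For ABCC3 they were ARHGAP26 (r = 0.990), TMEM250 (r = 0.980) and the gel-forming mucin MUC5AC (r = 0.978), which ran from 10.4 CPM in transduced E292V to 446.6 CPM in transduced L101P. For ABCB1 they were ZMYM2 (r = 0.994), the smooth muscle actin-binding gene TAGLN (r = 0.982), at 18.0 and 22.5 CPM in E292V and 2.23 to 8.01 CPM elsewhere, and NAE1 (r = 0.969). Among the members themselves ABCC3 and ABCG2 had r = 0.689 over the 10 libraries. ABCB1 had r = -0.796 with ABCC3 and -0.770 with ABCG2. Because ABCB1 had 0 counts in every library of L101P, E690K and the line labelled KO, all its r values mostly restate its higher level in E292V. They do not show variation together over the 10 libraries.

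None of the other tested genes of the 3 subfamilies passed. Of 18 listed, which include the peptide transporters TAP1 and TAP2 and the chloride channel CFTR, 14 were tested and 0 passed in any line comparison, for the vector or among lines. Their median log2 differences from WT were -0.03 in E690K, -0.13 in E292V, 0.03 in L101P and 0.08 in the line labelled KO, beside medians of all genes between -0.02 and 0. The mitochondrial transporter ABCB8 was the most abundant of these, at 79.7 to 92.0 CPM, and ABCB5 had 0 counts in all 10 libraries.

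The related lists are read against the shares of all tested genes that passed: 13.0% among lines; against WT, 5.38% in E690K, 3.94% in L101P, 1.80% in the line labelled KO and 1.05% in E292V; and 5.79% for L101P against the mean of E292V and E690K. Of 46 listed conjugating and glutathione genes, the enzymes that make the conjugates, 34 were tested, and 4 passed among lines, a share near that of all genes. Against WT 0 were higher, and those lower were 2 genes in E690K, 1 in L101P, 1 in the line labelled KO and 0 in E292V. The sulfotransferase SULT2B1 fell in the line labelled KO (log2 fold change -0.44, adjusted p = 0.023). The glutathione-cleaving enzyme GGT1 fell in L101P (-0.31, adjusted p = 0.0497) and E690K (-0.34, adjusted p = 0.0279), and the glutathione transferase GSTM4 fell in E690K (-0.76, adjusted p = 0.0232). In L101P against the mean of E292V and E690K 2 were higher and 0 lower: the glucuronosyltransferases UGT2B15 (1.82, adjusted p = 0.0244) and UGT2B4 (1.78, adjusted p = 0.035), whose levels are uncertain because reads can be shared among the near-identical UGT2B genes. The list medians against WT were 0.12, 0.01, -0.08 and -0.18 in the line labelled KO, L101P, E292V and E690K.

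Of 33 listed carriers, which move drugs and organic ions across the plasma membrane, 23 were tested and 7 passed among lines. In the line labelled KO 0 were higher and 1 lower, in L101P 1 higher and 0 lower, in E292V 0 passed, in E690K 1 was higher and 1 lower, and in L101P against the mean of E292V and E690K 1 was higher and 0 lower. The organic anion carrier SLCO2B1, at 0.291 to 2.03 CPM, had the largest called differences of the list: it fell in E690K (-1.99, adjusted p = 0.00903) and in the line labelled KO (-1.66, adjusted p = 0.0443) and was higher in L101P than in the mean of E292V and E690K (1.38, adjusted p = 0.0194). SLC22A18 was higher in L101P than in WT (0.46, adjusted p = 0.0313) and the organic anion carrier SLCO1B3 in E690K (0.61, adjusted p = 0.0335). The medians against WT were 0.11, 0.13, -0.17 and 0.02 in the line labelled KO, L101P, E292V and E690K.

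A list of 23 genes held transcription factors known to act on exporter or drug-metabolism genes, and KEAP1, the inhibitor of NRF2. Of these 22 were tested and 4 passed among lines: HNF4A (adjusted p = 0.00424), PPARG (0.0145), NR1H4 (0.0381) and FOXO1 (0.0413). Against WT 1 passed, PPARG, the fatty acid receptor, which was lower in E690K (-0.50, adjusted p = 0.0158). In L101P against the mean of E292V and E690K 2 were higher and 0 lower, the xenobiotic receptor AHR (0.55, adjusted p = 0.0351) and the bile acid receptor NR1H4 (1.84, adjusted p = 0.0356). NRF2 (NFE2L2), the factor of the oxidative stress response, did not pass against WT in any line. The list medians against WT were 0.03, 0.09, 0.01 and -0.115 in the same order of lines.

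The cholesterol efflux and LXR target list, the pathway of ABCG1, had 12 genes, all tested, of which 5 passed among lines. In the line labelled KO 0 were higher and 2 lower, in L101P 0 and 3, in E292V 1 and 0, and in E690K 1 and 2, beside the shares of all genes given above. In L101P against the mean of E292V and E690K 0 were higher and 4 lower: APOE (-1.71, adjusted p = 0.00138), ABCA1 (-0.93, adjusted p = 0.0414), SCD (-0.41, adjusted p = 0.0319) and NPC1 (-0.39, adjusted p = 0.0382). ABCA1, the phospholipid and cholesterol exporter that works ahead of ABCG1, fell in the line labelled KO (-1.67, SE 0.269, adjusted p = 0.00901), in L101P (-1.52, SE 0.268, adjusted p = 0.00958) and in E690K (-1.41, SE 0.266, adjusted p = 0.00892) and was at 0.22 in E292V (adjusted p = 0.858). The desaturase SCD fell in the same 3 lines, by 0.77, 0.69 and 0.85 on the log2 scale. The lipoprotein APOE fell in L101P (-1.501, adjusted p = 0.00486) and rose in E292V (1.17, adjusted p = 0.0227). ABCG1 itself was at 0.94 in L101P, where ABCA1 and APOE were lower, and at -0.64 in E292V (adjusted p = 0.509), where APOE was higher. The list medians were -0.12, -0.04, 0.04 and -0.16.

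Haem synthesis and porphyrin handling genes, listed beside ABCB6, were lower wherever they passed. All 18 were tested, and 4 passed in E690K, 4 in L101P, 3 in the line labelled KO and 0 in E292V, where the shares of all tested genes were 5.38%, 3.94%, 1.80% and 1.05%. Among lines 5 of the 18 passed (13.0% of all genes), and 0 passed in L101P against the mean of E292V and E690K. The haem-degrading enzyme HMOX1 fell by 0.93, 0.98 and 0.88 on the log2 scale in the line labelled KO, L101P and E690K (adjusted p = 0.0354, 0.0179 and 0.0232). The ferritin chains FTL and FTH1, which store iron, fell in the same 3 lines, FTL by 0.47, 0.49 and 0.72 and FTH1 by 0.51, 0.47 and 0.59. The list medians were -0.05, -0.07, -0.135 and -0.15. In each of these 6 lists 0 genes passed for the vector.

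Genes beside the exporters on the chromosome were counted within 500 kb. Of 11 tested neighbours of ABCB1, 1 passed in E292V against WT, ADAM22. Of 12 neighbours of ABCG1, 1 passed in each of L101P, E690K and the line labelled KO, the trefoil factor TFF1, although ABCG1 was highest in L101P alone, and of 10 neighbours of ABCG2, 0 passed in E292V. For ABCC3, 0 of 27 neighbours passed in L101P and in the line labelled KO and 2 in E690K, ACSF2 and SPAG9. Among lines, 4 of the 10 neighbours of ABCG2 passed (SPP1, PKD2, HERC6 and HERC3), 2 of 27 of ABCC3, 2 of 12 of ABCG1 and 1 of 11 of ABCB1. SPP1 also passed in L101P and in E690K against WT. With the shares of all genes at 1.05% to 5.38% against WT and 13.0% among lines, nothing is read from counts this small.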

How the data were processed

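RNA of 10 A549 libraries was measured, 1 for each of 5 lines and 2 treatments. The authors deposited read counts, whole numbers for each of 33551 gene rows, of which 98.7% matched a symbol of GENCODE release 29. The submitters' processing notes name featureCounts, Subread, edgeR, limma and GRCh38. Aligner settings and the use of strand are not given in the sources used here, and libraries came from a total-RNA kit, per the labels' protocols. Low counts were mostly even (81.4% of values from 1 to 10 against 51.5% of high values), so Wilson intervals at 95% use read pairs, the count divided by 2. Reads carry no molecular identifiers, and these intervals cover counting error only.

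From the counts, edgeR 4.0.16 in R 4.3.3 kept 17978 genes (filterByExpr), scaled libraries by TMM (factors 0.972 to 1.03) and fitted line and vector additively to the 10 libraries (4 residual degrees of freedom; 3 with the vector by WT term). The quasi-likelihood test was adjusted by Benjamini-Hochberg over all 17978 genes at 0.05, and an SE is the log2 fold change divided by the square root of F. The fitted common dispersion of 0.0168 corresponds to a variation of 12.9%. The vector effect pairs libraries by cell line, per the labels, and line is the block. With 1 library per group the labels name no replicate cultures. The p-values set each effect against an error that comes only from departure from additivity and that the quasi-likelihood fit moderates across genes. Alternatives were DESeq2 1.42.0, its size factors, other filters, counts divided by 2, exchanged KO labels, the 4 libraries of a line and WT alone, no block, and each library or pair left out.

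The members and lists were chosen with earlier results of these data known. All 10 members are reported. From each related list at most 3 genes were named, those called in a line comparison with an average log2 CPM of at least 1 and the largest log2 fold change, and 3 genes most alike in pattern for each of the 3 members with the smallest p among lines. A few others were named after their values were seen: ABCB8, ABCB5, NFE2L2, AHR, HNF4A, FOXO1, NR1H4, NPC1, SLCO2B1, UGT2B4, UGT2B15, the called markers with the tested markers of their lists, and the called neighbours.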

Additional observations from a re-analysis of the deposited data

Results flagged for a closer look

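ABCC6 differed between transduced and untreated libraries in another direction in the KO pair than in the other 4 lines. The log2 ratio of transduced to untreated CPM was 0.4489 in that pair and -0.3243 or lower in the other lines, a gap of 0.746 of the whole range where Dixon's 95% limit for 5 values is 0.71. This was the only 1 of 9 exporters beyond that limit, and chance takes about 1 in 20 such sets past it. The labels of that pair go against its ABCA3 and EGFP levels, ABCC6 had only 188 and 278 counts in those libraries, and its level is uncertain because of pseudogene copies; the part of these in the value was not tested.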

How the results depend on the processing

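No called member changed sign. Of 1566 member values recomputed under the alternatives 1516 kept their side of the threshold (the sign of values near 0 that did not pass could change), 31 lost a call and 19 gained one; where fewer libraries or another test did not by construction explain a change, the cause was not tested. Genes passing were 118 with DESeq2 and 237 with no filter on low counts for the vector, where leaving out libraries gave 0 to 206; 9 with no filter (0 to 6) for the vector by WT term; 3661 with no filter (931 to 4555) among lines; and 1707 with no filter (359 to 2647) for L101P against the mean of E292V and E690K. Against WT, the line labelled KO had 740 with DESeq2, 982 with no filter, 142 with its labels exchanged and 1725 in its 4 libraries with WT (25 to 1226); L101P had 1227, 1437 and 367 (180 to 1967); E292V had 429, 662, 105 and 734 (13 to 810); and E690K had 1463, 1659, 599 and 2378 (169 to 2147), in the same order. Members passing were 2 with no filter, 0 with labels exchanged and 3 in the 4 libraries for the line labelled KO (0 to 2 with libraries left out); 3 with DESeq2 and 3 with no filter for L101P (1 to 2); 0 with KO labels exchanged and 2 in the 4 libraries for E292V (0 to 1); 0 with KO labels exchanged for E690K (0 to 1); and 2 to 6 among lines and 1 to 3 for L101P against the mean of the other variants with libraries left out. Without the line as replicate block the vector effect called 0 genes and 0 members, as with the block. Depth limits ABCB1, with 0 counts in 6 libraries, and the members near 3 CPM.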
